A study of Mus musculus with 14 samples.

Results

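The genes described here are 32 known targets of p53, the transcription factor encoded by Trp53, and they were followed through cortex and hippocampus of mice depleted of the telomere protein TRF2. They were taken by gene symbol from the 20492 gene symbols in the authors' deposited tables. All 32 are listed in both tables. The FPKM values (fragments mapped to a coding sequence, scaled to its length and to the library's mapped fragments) of a gene's rows were summed, and a gene was kept in a tissue when the sum reached 0.5 FPKM in at least 1 condition. In both tissues this kept the same 28 members, of 12354 genes kept in cortex and 12760 in hippocampus.

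Total RNA was sequenced from C57BL/6 mice aged 3 months. The labels give 4 control and 3 TRF2-depleted samples of cortex, and 3 control and 3 TRF2-depleted samples of hippocampus. The control cohort is called WT in the design text, and the depleted cohort TRF2-DCX-cre, so that the recombinase is named after Dcx, a gene active in newly formed neurons. A further TRF2-depleted sample carries a title naming hippocampus and a tissue tag naming cortex and was placed in no group. The hippocampus table also holds a condition called DKO. No label describes DKO: the sources used here give neither its genotype nor its number of samples or their age, and its values stand below under the table's own name. The authors pooled the samples of a condition into 1 FPKM value for each row. The spread between samples therefore cannot be computed, the read depth is unknown, and the only test is the authors' own, made with Cuffdiff.

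Uncapped telomeres are read by the cell as broken DNA, and the kinases that respond to breaks stabilise p53. Active p53 binds DNA as a tetramer at a site built of a pair of 10-base motifs and switches on genes that stop the cell cycle, restrain growth signalling, repair DNA, or commit the cell to death. In brain tissue many of these targets are also expressed without p53 activation, and several answer to neuronal activity or to stress hormones as well. Whole tissue was measured, so fewer cells of a type and less RNA per cell cannot be told apart.

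To show what a p53 motif looks like in these genes, the 300 bases around each start site (250 before and 50 after, RefSeq, GRCm38.p6) were searched for the p53 consensus decamer, which reads the same on both strands. The table holds 25 of the 32 members. It lacks Zmat3, Tnfrsf10b, Perp, Ddb2, Xpc, Trp53inp1 and Rrm2b. The decamer was present for 7 of the 25 (28.0%), against 9.55% of 27025 genes with such a window. Decamer pairs with a gap of at most 13 bases were found in 0 of the 25 and in 20 genes in all (0.0740%). With 1 mismatch allowed in 20 bases without a gap, 2 members matched, Ccng1 and Gtse1, against 0.107% of all genes. The members were listed as known p53 targets, so these shares are no result about the samples. The decamer is in capitals in the lines that follow, each written 5′ to 3′ on the strand of its gene. They are shown because they include Ccng1, Ddit4l and Sesn1, whose values are taken up below.
Ccng1: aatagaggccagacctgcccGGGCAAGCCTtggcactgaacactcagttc
Ddit4l: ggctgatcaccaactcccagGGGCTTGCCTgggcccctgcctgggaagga
Sesn1: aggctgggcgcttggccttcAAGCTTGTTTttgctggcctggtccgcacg
Aen: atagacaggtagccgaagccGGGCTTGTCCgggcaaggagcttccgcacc
Ei24: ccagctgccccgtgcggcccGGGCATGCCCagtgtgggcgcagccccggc
Gtse1: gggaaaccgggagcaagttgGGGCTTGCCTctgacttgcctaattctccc
Polk: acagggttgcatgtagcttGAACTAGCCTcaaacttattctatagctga
On GRCm38.p6 these stretches lie at chr11:40755442-40755491 (minus strand) for Ccng1, chr3:137623562-137623611 (plus) for Ddit4l, chr10:41887246-41887295 (plus) for Sesn1 and chr7:78895917-78895966 (plus) for Aen. Those of Ei24, Gtse1 and Polk lie at chr9:36797315-36797364 (minus), chr15:85859935-85859984 (plus) and chr13:96519389-96519437 (minus). In Ccng1 the decamer begins 185 bases before the start base, in Ddit4l 90 and in Ei24 10. A match of letters describes the window and does not show that p53 is bound there, and other p53 sites of these genes may lie outside it.

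The targeted gene was lower in the libraries labelled as depleted. Over its 3 rows Terf2 summed to 3.59 FPKM in control cortex and to 0.202 FPKM after depletion, and to 2.01, 0.883 and 0.753 FPKM in control, TRF2-depleted and DKO hippocampus. The authors' deposited table gives its 1 tested row in cortex p = 0.105 and q = 0.576, and no Terf2 row was tested in hippocampus. Trp53 itself, summed over 2 rows, had 3.96 and 3.63 FPKM in control and TRF2-depleted cortex. In hippocampus it had 5.24 FPKM in control, 4.79 FPKM in TRF2-depleted and 2.35 FPKM in DKO. For its tested row the authors' deposited table gives p = 0.0039 (q = 0.442) for DKO against control and p = 0.00345 (q = 0.429) for DKO against TRF2-depleted. Markers fixed for each tissue were present: 5 cortical markers summed to 93.2 and 97.2 FPKM in the cortex conditions and to between 23.4 and 24.0 FPKM in the hippocampal ones, while 6 hippocampal markers summed to 15.3 and 13.8 FPKM in cortex and to 76.0, 66.9 and 78.5 FPKM in hippocampus. Of the 6, all tested in hippocampus, 2 passed a q of 0.05 downward in each of TRF2-depleted and DKO hippocampus against control. Of all tested genes 0.183% and 0.204% passed there in either direction. Choroid plexus was unevenly present. Its 5 markers summed to 97.1 FPKM in control cortex, 2.52 FPKM in depleted cortex, and 277, 491 and 9.74 FPKM in control, TRF2-depleted and DKO hippocampus, with no marker at 0. In depleted cortex 1 of 1 tested marker passed a q of 0.05, lower, against 0.335% of all tested genes. Against control hippocampus 0 of 5 tested passed in TRF2-depleted tissue and 3 of 5 in DKO, all lower. Meningeal markers summed to 22.7, 31.8 and 27.7 FPKM in the hippocampal conditions. The part of these tissues in the values of the p53 targets was not tested.

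The 28 kept members spanned a wide range of levels. In control hippocampus they ran from 0.426 FPKM (Fas) to 49.9 FPKM (Plk2) with a median of 4.73 FPKM, close to the 4.21 FPKM of all kept genes. The most abundant in both tissues were Plk2, Ak1 and Fbxw7. Plk2, a polo-like kinase that acts at synapses in neurons, had 40.7 and 38.7 FPKM in control and TRF2-depleted cortex. Ak1, the cytosolic adenylate kinase, had 33.5 and 35.2 FPKM there, and Fbxw7, the substrate receptor of a ubiquitin ligase that removes cyclin E and Myc, 36.8 and 37.2 FPKM. The 4 members below the filter were Gtse1, Gdf15, Eda2r and Dram1. Dram1, a lysosomal membrane protein tied to autophagy, stood just outside it, at 0.126 to 0.318 FPKM over the 5 tissue conditions. Tnfrsf10b, the mouse receptor for the death ligand TRAIL, stood just inside it in hippocampus, with a highest value of 0.588 FPKM, and Psrc1 in cortex, with 0.580 FPKM.

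**Figure D1:**
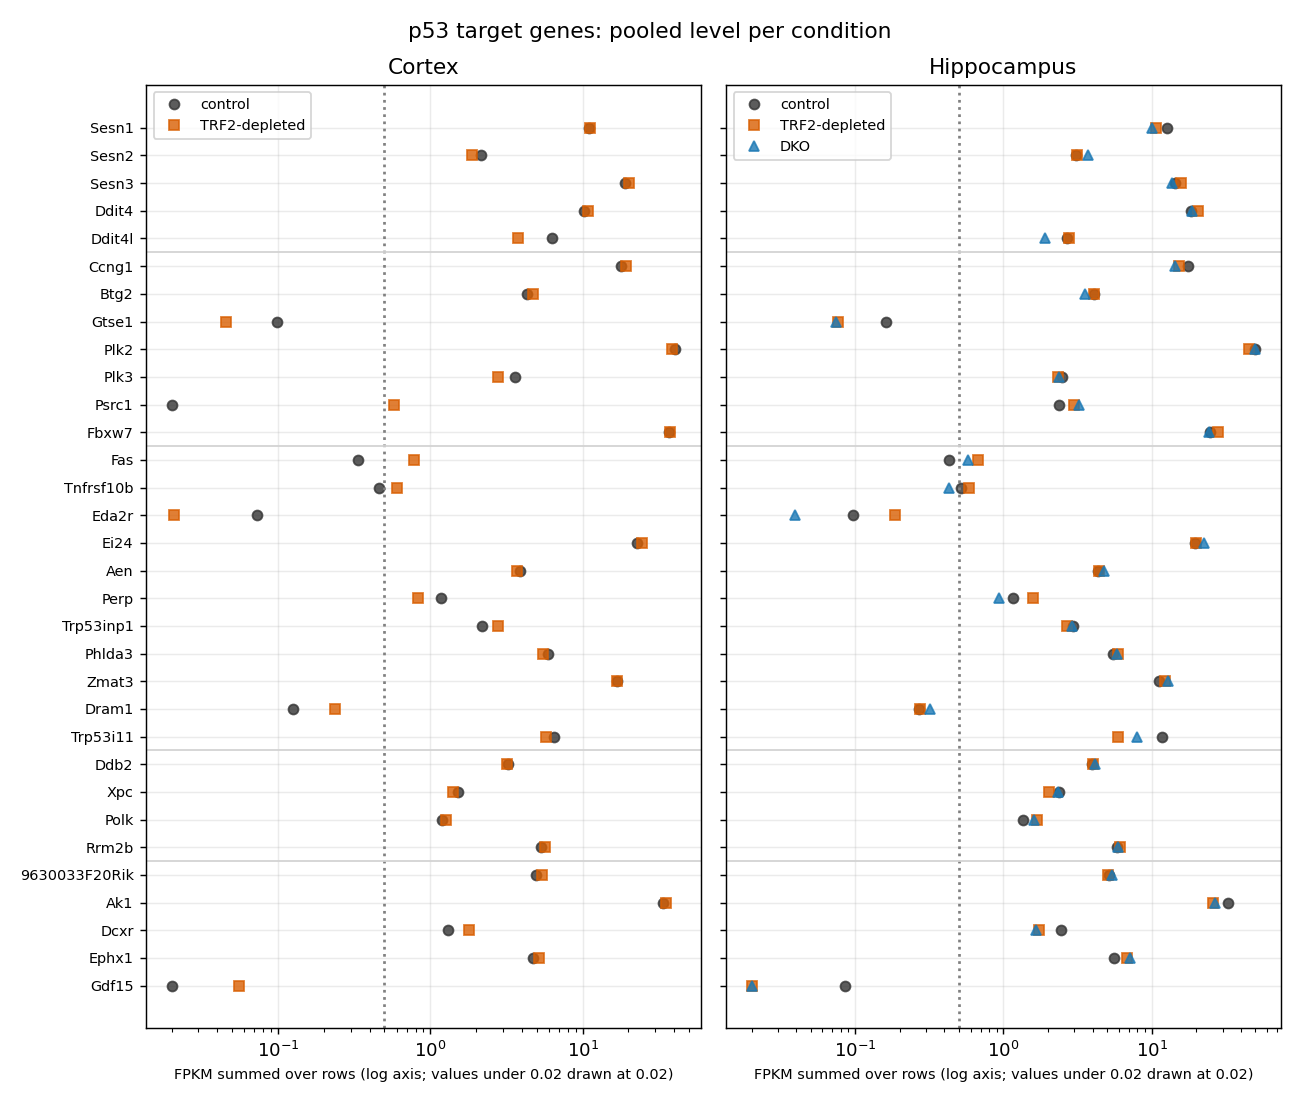
Summed FPKM (log axis) of each of the 32 p53 target genes in control, TRF2-depleted and DKO tissue, 1 pooled value per point, in the order of their roles with grey lines between roles and a dotted line at 0.5 FPKM. The markers of a gene mostly lie on top of each other, while Psrc1 in cortex and Trp53i11 in hippocampus lie apart, and Gtse1, Gdf15, Eda2r and Dram1 stay left of the dotted line.

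The first question is whether p53 targets changed in cortex depleted of TRF2. None passed the authors' test. Of the 28 kept members 19 had a row the authors tested, and 0 of the 19 reached a deposited q of 0.05, where 0.335% of 8658 tested genes did. At an unadjusted Cuffdiff p under 0.05 the count was again 0, against 6.81% of tested genes, and the smallest p of a member in the authors' deposited table was 0.159. The median log2 ratio of the 28 was 0.07, with 17 higher and 11 lower, beside -0.03 over all kept genes, of which 45.2% were higher. Among the 17, Fas, Psrc1 and Tnfrsf10b were under 0.5 FPKM in control and passed the filter only through the depleted value. Their direction was therefore fixed by the filter. With a filter of 1 FPKM the median was 0.04. Within a 1.2-fold difference lay 20 of the 28 (71.4%), against 66.5% of all kept genes. A difference of at least 1.5-fold was seen in 3 members (10.7%), close to the 11.9% of all kept genes.

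Those 3 were Ddit4l, Fas and Psrc1. Ddit4l, a relative of Ddit4 that restrains mTOR signalling, stood at 6.26 FPKM in control cortex and 3.79 FPKM after depletion (log2 ratio -0.73). The authors' deposited table gives p = 0.159 and q = 0.631 for it. Fas, the death receptor of the Fas ligand, had 0.334 and 0.786 FPKM. It has 2 rows, neither tested by the authors, and the one listed at 0 in control accounts for 0.387 FPKM of the depleted value. Psrc1, a microtubule-binding protein of the mitotic spindle, is listed at 0.00254 FPKM in control cortex and 0.580 FPKM after depletion, also untested. With 1 FPKM added to both values its log2 ratio was 0.66. All 5 markers of dividing cells were below 0.5 FPKM in every condition, with sums of 0.850 and 0.673 FPKM in the cortex conditions.

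Apart from Ddit4l, the growth restrainers of the list lay within a 1.2-fold difference in cortex. Sestrins keep mTORC1 off when amino acids are scarce and limit oxidative damage. Sesn1 had 10.96 and 11.2 FPKM, Sesn2 2.15 and 1.87 FPKM and Sesn3 19.1 and 20.2 FPKM in control and TRF2-depleted cortex. Sesn2 had no tested row. The 2 rows of Sesn1 went in opposite directions, from 1.68 to 1.00 FPKM and from 9.27 to 10.2 FPKM. Ddit4, which signals from hypoxia and glucocorticoids to mTORC1, had 10.3 and 10.9 FPKM.

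Among cell cycle genes the antiproliferative factor Btg2 had 4.29 and 4.73 FPKM, and Plk3, a stress-responsive polo-like kinase, 3.61 and 2.78 FPKM (log2 ratio -0.38). For Plk3 the authors' deposited table gives p = 0.219. Btg2, Plk2 and Plk3 are also induced by neuronal activity. In the same comparison 21 of 23 kept immediate early genes were lower (median log2 ratio -0.29), while 45.2% of all kept genes were higher (median -0.03). Of 20 tested immediate early genes 2 passed the q threshold, both lower, against 0.335% of all tested genes. At an unadjusted Cuffdiff p under 0.05, 13 of the 20 were lower and 1 higher, against 6.81% of all tested genes. The immediate early genes summed to 534 and 430 FPKM. Whether this touches the values of Plk2 and Plk3 was not tested, and Btg2 did not share the direction. Ccng1, cyclin G1, a classic p53 target that opposes p53 through Mdm2, had 17.9 and 19.2 FPKM.

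Members tied to cell death had log2 ratios from -0.50 to 1.24 in cortex, 4 higher and 5 lower among 9 kept. Apart from Fas, the widest was that of Perp, a desmosomal protein, with 1.18 and 0.830 FPKM in an untested row. Tnfrsf10b had 0.461 and 0.603 FPKM and Trp53inp1, a promoter of autophagy and p53 phosphorylation, 2.20 and 2.77 FPKM, neither tested. Zmat3, an RNA-binding zinc finger protein, was at 16.8 and 16.7 FPKM, and the exonuclease Aen at 3.85 and 3.74 FPKM. Ei24, an endoplasmic reticulum protein, had 22.7 and 24.4 FPKM, Phlda3, which blocks Akt at the membrane, 5.91 and 5.49 FPKM, and Trp53i11 6.5 and 5.75 FPKM. The low Eda2r, a receptor for ectodysplasin A2, had 0.0732 and 0.0208 FPKM.

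DNA repair members spanned the narrowest range of any role, with log2 ratios between -0.12 and 0.09. Ddb2 and Xpc, which find ultraviolet damage for nucleotide excision repair, had 3.25 and 3.21 FPKM and 1.52 and 1.4 FPKM. Polk, a polymerase that copies past damaged bases, had 1.19 and 1.27 FPKM, and Rrm2b, the ribonucleotide reductase subunit used outside S phase, 5.34 and 5.69 FPKM. Ddb2 shares 273 coding bases with Acp2 on the opposite strand (GENCODE M21). No source used here says whether counting used strand, so reads from the shared part cannot be told apart.

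The sums of the enzymes were all slightly higher, by a log2 ratio of 0.07 to 0.46, without passing. The 0.07 was that of Ak1, whose rows differed. Its tested row had 33.5 and 34.1 FPKM (log2 ratio 0.02, p = 0.826 in the authors' deposited table). The other, untested, is listed at 0.00163 FPKM in control and 1.12 FPKM after depletion. The gene listed as 9630033F20Rik, now called Tigar, encodes a phosphatase that lowers glycolytic flux. It had 4.91 and 5.40 FPKM. Dcxr, a sugar and dicarbonyl reductase, had 1.31 and 1.81 FPKM in an untested row, and Ephx1, the microsomal epoxide hydrolase, 4.74 and 5.17 FPKM. Gdf15, the secreted stress cytokine, has a listed value of 0 in control cortex and 0.0551 FPKM after depletion.

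In the hippocampus of TRF2-depleted mice the picture was similar: 0 of 25 tested members reached a q of 0.05, against 0.183% of 9824 tested genes. The median log2 ratio was 0.03, with 18 of 28 higher and 10 lower, beside 0.00 over all kept genes, of which 51.0% were higher. At an unadjusted Cuffdiff p under 0.05 there was 1 member, or 4.00%, against 5.45% of all tested genes. Differences of at least 1.5-fold were seen in 2 members (7.14%), against 15.4% of kept genes, and 20 of 28 (71.4%) lay within 1.2-fold, against 62.7%.

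The 1 member was Trp53i11, a gene first described as induced by p53 (chromosome 2 from 93187584 to 93201757, mm10). It had 11.7 FPKM in control, 5.89 FPKM in TRF2-depleted and 7.94 FPKM in DKO hippocampus, so that control was the highest of the 3. The log2 ratio of TRF2-depleted to control was -0.99, with p = 0.0489 and q = 0.886 in the authors' deposited table. For DKO against control it was -0.56 (p = 0.0895 in the authors' deposited table), and these comparisons share the control samples. Over the 3 hippocampal conditions its highest value was 1.99 times its lowest, the widest span among the 28, whose median span was 1.17.

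Fas was the other member past 1.5-fold, at 0.426 FPKM in control, 0.672 in TRF2-depleted and 0.577 in DKO hippocampus. It passed the 0.5 FPKM filter only through the conditions where it was higher. Its 2 rows went in opposite directions between control and TRF2-depleted tissue, from 0.230 to 0.608 FPKM and from 0.196 to 0.0641 FPKM, and neither was tested by the authors. Perp followed at 1.16, 1.59 and 0.928 FPKM in control, TRF2-depleted and DKO, untested as well. Within each tissue Perp was lowest where the choroid plexus markers were lowest and highest where they were highest. The same held for Ddit4l and for Eda2r, which is below the filter. Ddit4l had 2.70, 2.75 and 1.91 FPKM in the hippocampal conditions, and 6.26 and 3.79 FPKM in control and TRF2-depleted cortex. Tnfrsf10b ran in the same order in hippocampus, with 0.515, 0.588 and 0.432 FPKM. It did not in cortex, where it was higher in the condition with lower choroid plexus markers. The sums of Sesn3, Fbxw7 and Btg2 also ran in that order in hippocampus and not in cortex. The other death-linked members were closer together: Ei24 had 19.7, 19.7 and 22.6 FPKM in control, TRF2-depleted and DKO, Zmat3 11.2, 12.4 and 12.8 FPKM, and Phlda3 5.45, 5.94 and 5.84 FPKM. Trp53inp1 lay between 2.67 and 2.92 FPKM and Aen between 4.34 and 4.79 FPKM. Within Aen the more abundant row had 2.89, 4.25 and 4.21 FPKM and the other 1.45, 0.182 and 0.585 FPKM in the same order, so that the sum hides an uneven split. Its more abundant row alone had a log2 ratio of 0.55 for TRF2-depleted tissue against control, with p = 0.213 in the authors' deposited table, beside 0.03 for the sum. Eda2r was below 0.5 FPKM throughout, at 0.0971, 0.186 and 0.0395 FPKM.

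**Figure D2:**
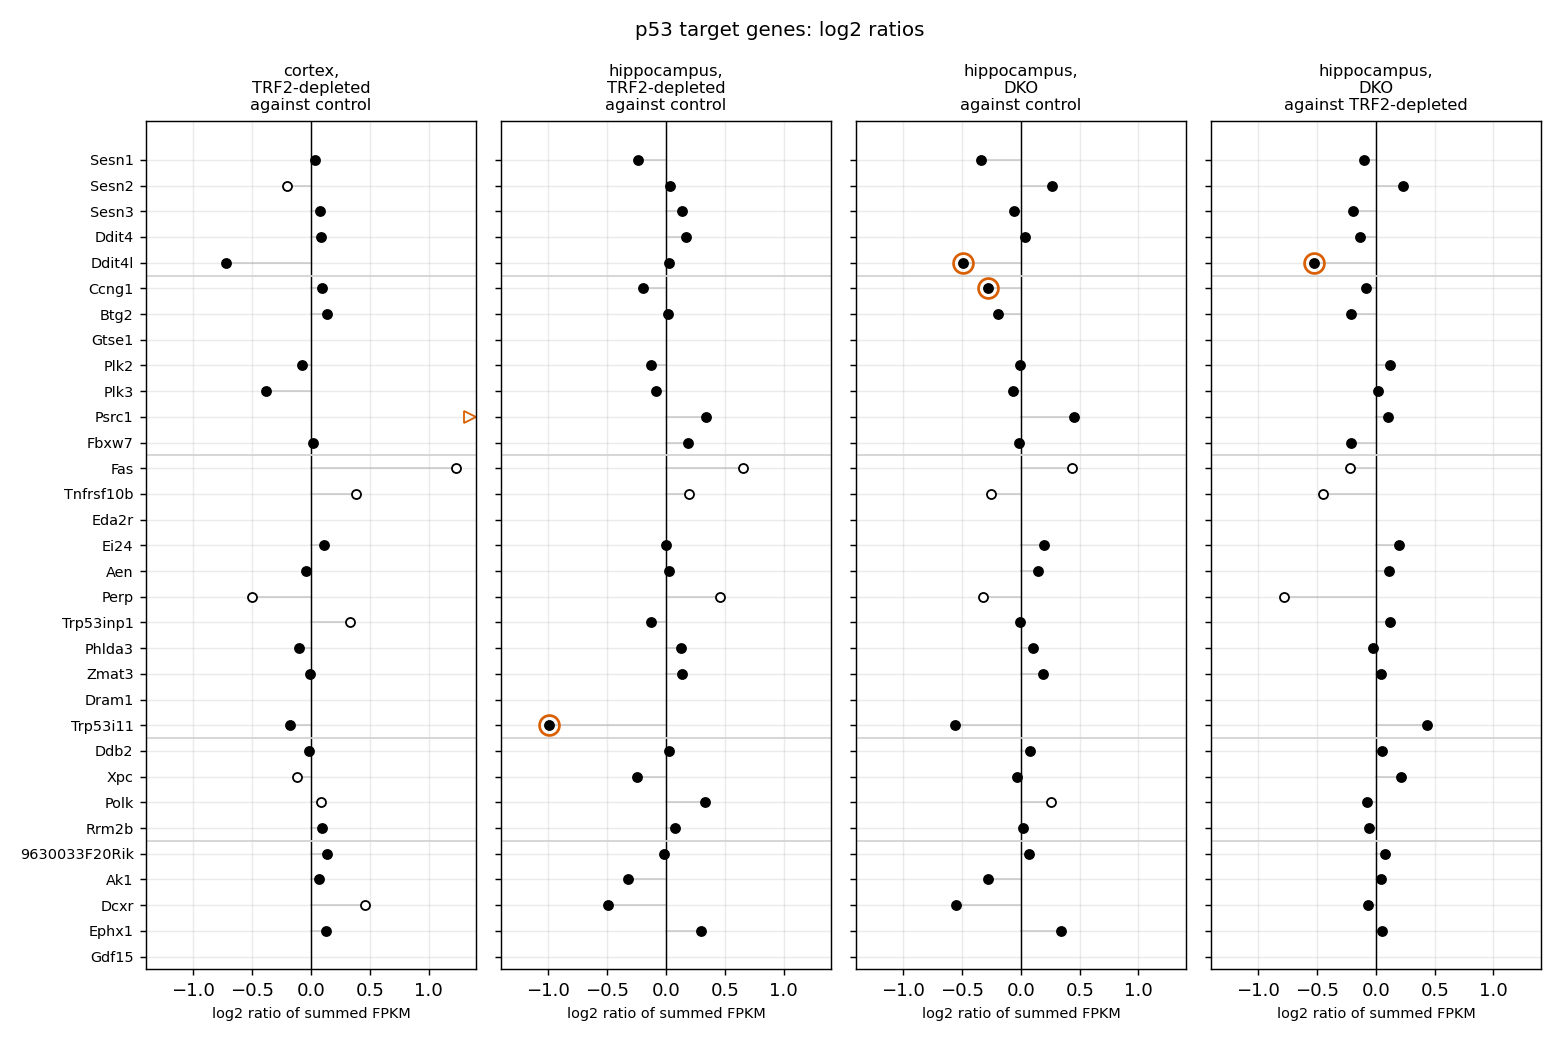
Log2 ratio of summed FPKM (x axis) of the 28 kept members in 4 comparisons, with empty rows for the 4 members below the filter. Filled points have a row the authors tested, open points have none, orange rings mark an unadjusted p under 0.05 (Trp53i11, Ccng1 and Ddit4l), and the arrowhead at the edge stands for Psrc1 in cortex, listed at 0.00254 FPKM in control.

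Of the metabolic members, Ak1 had 32.5 FPKM in control, 26.0 in TRF2-depleted and 26.9 in DKO hippocampus. Control was again the highest, with a log2 ratio of -0.32 for TRF2-depleted tissue and p = 0.0939 in the authors' deposited table. Dcxr had 2.44, 1.73 and 1.66 FPKM in the same order, with p = 0.255 for TRF2-depleted and p = 0.167 for DKO against control in the authors' deposited table. Ephx1 ran the other way, at 5.58, 6.86 and 7.09 FPKM. For Ephx1 the authors' deposited table gives p = 0.147 and p = 0.0640 against control. Tigar stayed between 5.07 and 5.36 FPKM. Gdf15 is listed at 0.0859 FPKM in control and at 0 in TRF2-depleted and DKO hippocampus.

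The DNA repair members showed no shared direction in hippocampus. Ddb2 lay between 3.94 and 4.17 FPKM and Rrm2b between 5.82 and 6.13 FPKM. Xpc had 2.38, 2.01 and 2.33 FPKM and Polk 1.34, 1.69 and 1.60 FPKM in control, TRF2-depleted and DKO. The smallest p among the 4 for TRF2-depleted against control was 0.161 (Polk) in the authors' deposited table.

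Growth restrainers in hippocampus parted by gene. Sesn1 had 12.7 FPKM in control, 10.8 in TRF2-depleted and 10.02 in DKO. The authors' deposited table splits it into 2 rows, and the smaller p of the 2 was 0.119 for TRF2-depleted and 0.147 for DKO against control. The row with more FPKM in hippocampus (10.2 in control, against 2.48) is the one with less in cortex (1.68, against 9.27), so a row may not stand for the same coding sequence in both tables. Sesn2 had 3.08, 3.15 and 3.70 FPKM and Sesn3 14.2, 15.7 and 13.7 FPKM. The 3 sestrins kept the same order of levels in both tissues, Sesn3 above Sesn1 above Sesn2. Ddit4 had 18.3, 20.6 and 18.7 FPKM. Among 17 kept glucocorticoid-responsive genes, listed because Ddit4 is one of their kind, 9 were higher and 8 lower in TRF2-depleted hippocampus (median log2 ratio 0.14), with 0 called and 0 at an unadjusted Cuffdiff p under 0.05. In DKO 13 of the 17 were higher than in control (median 0.26), beside 52.5% of all kept genes. Of 16 tested there, 0 were called and 2 had an unadjusted Cuffdiff p under 0.05, both higher, against 7.48% of all tested genes. Against TRF2-depleted tissue 11 were higher in DKO (median 0.31), beside 51.6% of all kept genes. In cortex 6 of 16 kept were higher and 10 lower (median -0.09). There 1 of 14 tested was called, lower, against 0.335% of all tested genes. Whether this touches the values of Ddit4 was not tested.

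DKO hippocampus was compared with control because the table holds that comparison. Of 24 tested members 0 reached a q of 0.05, against 0.204% of 9816 tested genes, and 2 had an unadjusted Cuffdiff p under 0.05, or 8.33% against 7.48% of tested genes. Both were lower. Ddit4l had 2.70 FPKM in control, 2.75 in TRF2-depleted and 1.91 in DKO, so that DKO stood apart from the other conditions (log2 ratio to control -0.50, p = 0.0366, q = 0.886 in the authors' deposited table). Ccng1 (chromosome 11 from 40748552 to 40755286) had 17.4, 15.2 and 14.4 FPKM in control, TRF2-depleted and DKO, a log2 ratio of DKO to control of -0.28 (p = 0.0234, q = 0.810 in the authors' deposited table). Trp53 and the summed choroid plexus markers, as given above, were lowest in DKO as well among the hippocampal conditions. The promoter windows of Ddit4l and Ccng1 hold the decamer printed above. Of the other 5 members that hold it, Sesn1 was also lowest in DKO, Aen and Ei24 were highest there, and Polk lay between the other conditions. Gtse1, below the filter, was nearly equal in TRF2-depleted and DKO, at 0.0767 and 0.0743 FPKM. Among kept members whose window holds no decamer, Sesn3, Fbxw7, Btg2 and Dcxr were lowest in DKO, and Sesn2, Ephx1, Psrc1 and Tigar highest. Fbxw7 was lowest there only by its sum, at 24.3 FPKM against 24.6 FPKM in control. Whether p53, the decamer or the choroid plexus has a part in these values was not tested.

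The median log2 ratio of the 28 in DKO against control was -0.01, with 13 higher and 15 lower, beside 0.02 over all kept genes, of which 52.5% were higher. No member reached a 1.5-fold difference, against 14.6% of kept genes, and 18 of 28 (64.3%) lay within 1.2-fold, against 62.4%. Among cell cycle members Psrc1 was highest in DKO, with 2.36, 2.99 and 3.22 FPKM in control, TRF2-depleted and DKO (p = 0.0874 for DKO against control in the authors' deposited table). Markers of dividing cells summed to 0.675, 0.350 and 0.398 FPKM in that order. Gtse1, a G2 and S phase protein that escorts p53 out of the nucleus, had 0.161, 0.0767 and 0.0743 FPKM. Btg2 had 4.06, 4.10 and 3.54 FPKM, Plk2 49.9, 45.6 and 49.6 FPKM and Plk3 2.48, 2.35 and 2.37 FPKM. Of 23 kept immediate early genes 12 were higher and 11 lower in each of TRF2-depleted and DKO hippocampus against control. Of all kept genes 51.0% and 52.5% were higher there. Fbxw7 had 24.6, 28.0 and 24.3 FPKM. Its less abundant row had 5.47, 4.99 and 3.04 FPKM (p = 0.0895 for DKO against control in the authors' deposited table), while the other had 19.1, 23.1 and 21.2 FPKM.

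DKO against TRF2-depleted hippocampus gave the closest match of the 4 comparisons in the share of members within 1.2-fold, 24 of 28 (85.7%), against 65.7% of all kept genes. A 1.5-fold difference was seen in 1 member, Perp (3.57%, against 13.6% of kept genes), with a log2 ratio of -0.78 and no test. Of 25 tested members 0 reached a q of 0.05, against 0.173% of 9818 tested genes. The 1 member at an unadjusted Cuffdiff p under 0.05 (4.00%, against 5.37%) was Ddit4l, with a log2 ratio of -0.52 and p = 0.0281 (q = 0.843) in the authors' deposited table. Over the 28 members the median was 0.00, with 14 higher and 14 lower, and over all kept genes it was 0.01, with 51.6% higher.

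**Figure D3:**
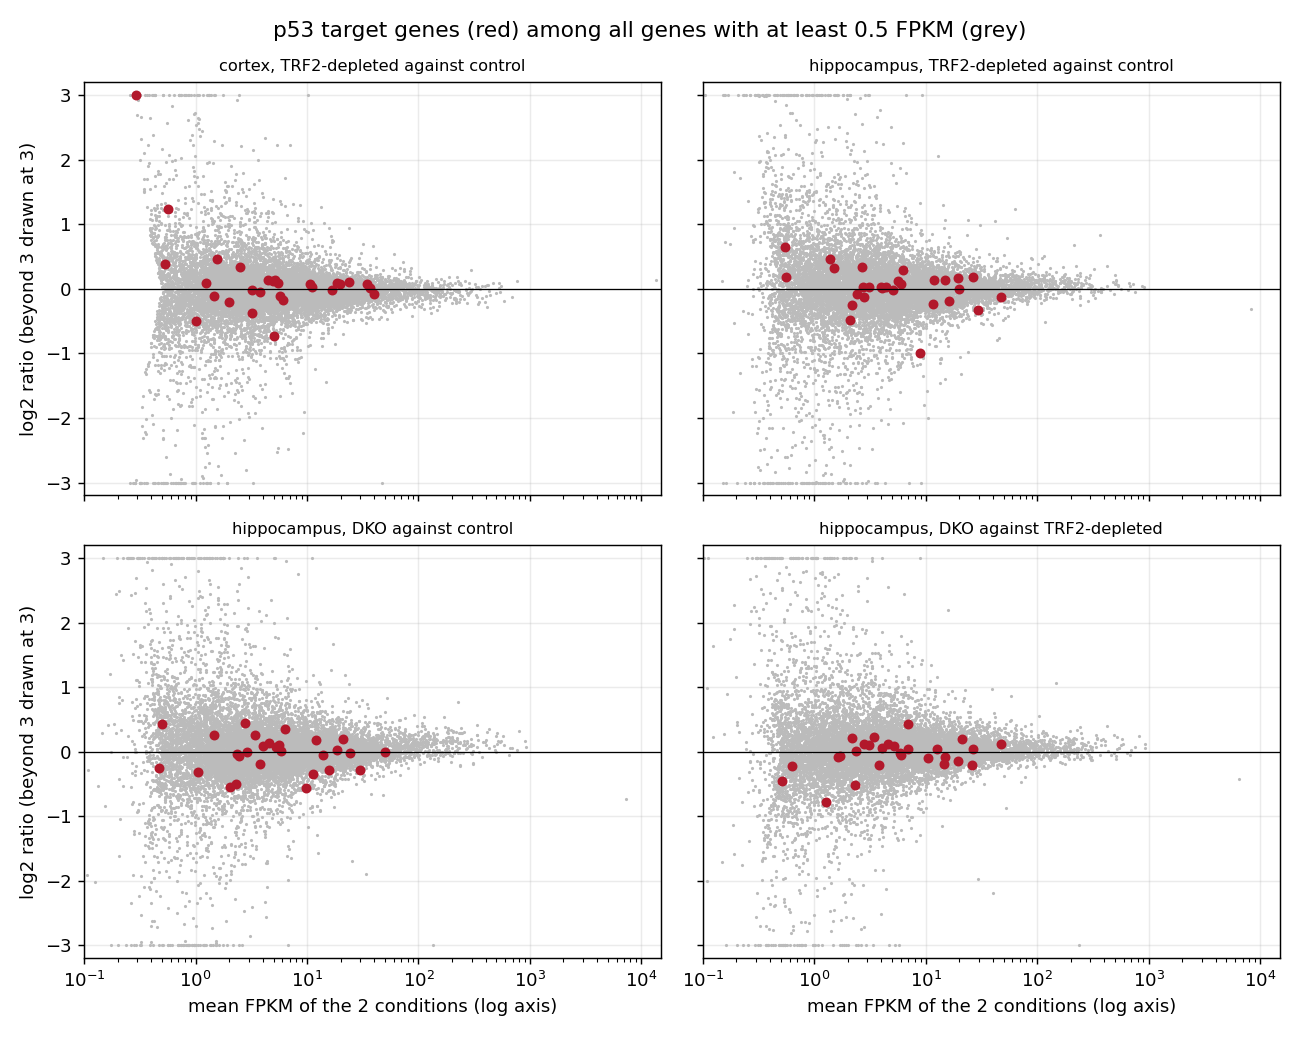
Log2 ratio (y axis, values beyond 3 drawn at 3) against mean FPKM of the compared conditions (log x axis) for all kept genes in grey and p53 target genes in red, 1 panel per comparison, without genes at 0 in a condition. Most red points lie inside the grey cloud, and those farthest from 0 are Psrc1 and Fas in cortex, at low levels, and Trp53i11 in TRF2-depleted hippocampus.

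Rows near the p threshold give a rough view of the precision of the pooled data. In the authors' deposited table, rows with a p between 0.04 and 0.06 and a mean of 2 to 10 FPKM had a median fold difference of 1.36 to 1.44 over the 4 comparisons, and rows of 10 to 50 FPKM one of 1.2 to 1.26. These rows were picked by their p, so the folds are no detection limit, and members past them did not all reach 0.05: Ddit4l in cortex, at a log2 ratio of -0.73, has p = 0.159 in the authors' deposited table. A p that misses the threshold does not show that a gene was unchanged.

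Other genes of the p53 pathway were counted from a separate list of 63 symbols, among them Trp53, its regulators, p21 and the apoptotic effectors. It also holds Bcl2 and cyclins and cyclin-dependent kinases such as Ccnb1 and Cdk1, and 61 of the symbols were found. The list was not sorted by the direction in which p53 moves a gene, so its counts do not measure p53 activity. Of 46 kept in cortex 20 were higher and 26 lower in TRF2-depleted tissue (median log2 ratio -0.03), 0 passed a q of 0.05, and at an unadjusted Cuffdiff p under 0.05 there were 1 higher and 2 lower of 30 tested (10%, against 6.81% of all tested genes). In hippocampus 49 were kept. Against control, 23 were higher and 26 lower in TRF2-depleted tissue (median -0.01) and 22 higher and 27 lower in DKO (median -0.06), with 0 past a q of 0.05 in both. At an unadjusted p under 0.05 there was 1 in each direction of 36 tested in TRF2-depleted tissue (5.56%, against 5.45%). In DKO there were 3 higher and 2 lower of 36 (13.9%, against 7.48%), Trp53 being one of the lower.

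Between the tissues, the TRF2-depleted ratios of the 28 members had the same sign in 53.6%, near the 50.8% of 12030 genes kept in both tissues with a ratio in each. In 11 members the ratio was higher in both tissues and in 4, Xpc, Plk2, Plk3 and Trp53i11, lower in both. The 11 include Fas, which was under 0.5 FPKM in both controls and passed the filter only through the conditions where it was higher. They also include Psrc1 and Tnfrsf10b, which in cortex passed the filter only through the depleted condition. None of the 15 passed the authors' test in either tissue, and the difference between tissues was not tested. Whether 1 mouse gave both tissues is not stated in the labels.

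Control levels of several members differed between the tissues. The tables were normalised separately, so they are set side by side without a test. Of the 28 members 18 (64.3%) lay within 0.5 on the log2 scale between control hippocampus and control cortex, as did 65.1% of all genes kept in both. Psrc1 was at 0.00254 FPKM in cortex and 2.36 FPKM in hippocampus. Ddit4l was 2.32 times higher in cortex. Dcxr, Trp53i11 and Ddit4 were higher in hippocampus, by 1.86, 1.8 and 1.78 times, while Zmat3, Fbxw7 and Plk3 were 1.5, 1.49 and 1.45 times higher in cortex.

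**Figure D4:**
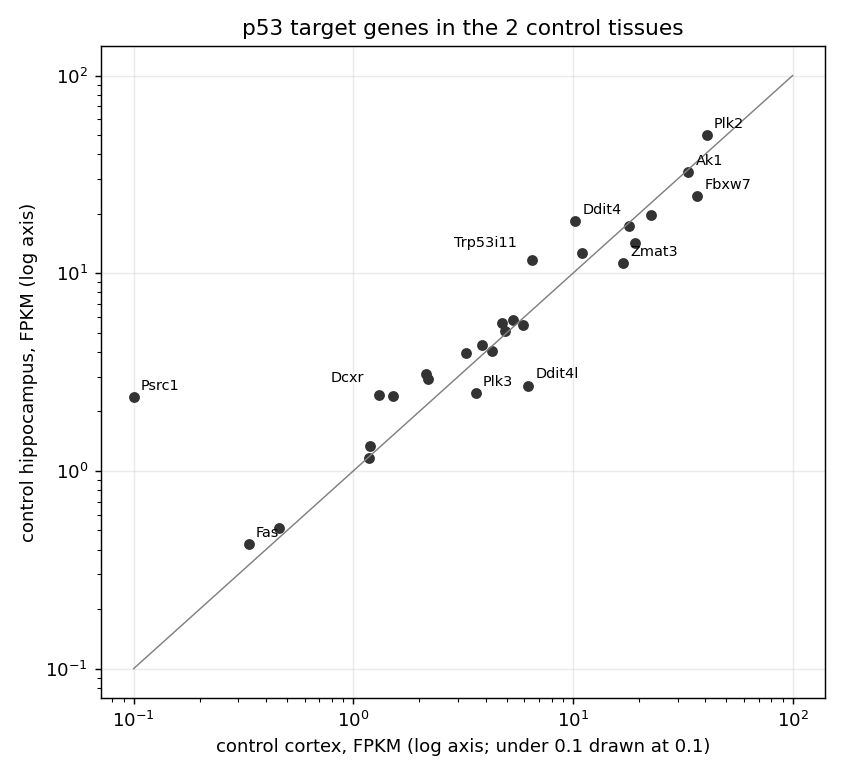
Summed FPKM of the 28 kept members in control cortex (x axis) and control hippocampus (y axis), both on log axes with a line of equal level. Most points lie near the line, while Psrc1 (drawn at 0.1 on the x axis) and Ddit4l lie farthest from it on opposite sides.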

How the data were processed

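Per the submitters' processing notes, CASAVA 1.8, TopHat2, Cufflinks and Cuffdiff were used with build mm10, with no annotation or settings named there. The deposited FPKM are 1 value per condition and coding-sequence row, pooled over replicates by the authors, per the file headers. The deposited p-values and q-values are the authors' Cuffdiff test, and rows they did not test were left out of calls. A Benjamini-Hochberg adjustment over the 33101 tested hippocampus rows gave the deposited q to within 5.26e-07, while in cortex the same step missed it by up to 0.335.

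FPKM were summed per gene symbol, and log2 ratios of the sums carry no pseudocount unless stated. A gene counts as tested or called by any of its rows, and its printed p is the smallest among them. The members, the lists and the tests were chosen with earlier results of these data known. Values were printed in full for members with an unadjusted p under 0.05, the 3 highest or lowest ratios of a comparison, the 3 highest levels of a tissue, the sestrins and those beside the filter, and other members' values were added to complete each role. Promoter searches were added after the values were seen. The labels name no animal for any sample, so p-values measure only the spread between these samples. The TRF2-depleted sample with conflicting tissue labels was placed in no group, and it is not known here if the pooled values hold it. Sums and adjustments were tested on simulated data. Tools were Python 3.11.15, pandas 2.3.3, numpy 2.4.6, matplotlib 3.10.9 and, for checks, scipy 1.17.1.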

Additional observations from a re-analysis of the deposited data

How the results depend on the processing

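No paired analysis was possible because the deposited values are pooled over replicates, and for the same reason no replicate could be left out. The count of members called was 0 in all 4 comparisons at q thresholds of 0.1, 0.05 and 0.01, with a Benjamini-Hochberg adjustment within each comparison, and without the 0.5 FPKM filter. At an unadjusted p under 0.05 it was 0 in cortex, 1 for TRF2-depleted and 2 for DKO hippocampus against control, and 1 for DKO against TRF2-depleted. The median log2 ratio of the members moved by less than 0.1 under all 8 alternatives (pseudocounts of 0.1 and 1, filters of 1 and 5 FPKM or none, the most abundant row, centring on all genes, tested genes alone). It ranged from 0.04 to 0.10 in cortex and from 0.02 to 0.04 in TRF2-depleted hippocampus. For DKO it lay on both sides of 0, from -0.02 to 0.02 against control and from -0.03 to 0.04 against TRF2-depleted. For single ratios of the 28 kept members, 11 of them added to this step after seeing the data, the most abundant row in place of the sum left 100 of 112 within 0.1, and a pseudocount of 1 left 89 of 112. The most abundant row changed 4 signs: Trp53inp1 in TRF2-depleted hippocampus (-0.13 to 0.01) and in DKO (-0.01 to 0.13) against control, Fbxw7 in DKO against control (-0.02 to 0.15), and Aen in DKO against TRF2-depleted (0.11 to -0.01). It also moved Aen in TRF2-depleted hippocampus from 0.03 to 0.55 and in DKO from 0.14 to 0.54 against control. Depth is unknown, and the smallest members carry the least certain ratios.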
